A study of Rattus norvegicus with 325 samples.

Results

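Most of the genes described here encode subunits of respiratory complexes III, IV and V. They were chosen by name alone: every gene whose symbol starts with Uqcr, Cox4, Cox5, Cox6, Cox7, Cox8 or Atp5 was taken, and the lines of a symbol listed more than once were summed. This gave 41 symbols on 42 lines, of 17315 distinct symbols in the files: by prefix, 8 of complex III, 16 of complex IV and 17 of complex V. Complex V here takes in Atp5s and Atp5sl, which are not subunits. Complex IV takes in Cox7a2l, which helps join complexes III and IV, and Cox6c-ps1, whose symbol marks a pseudogene. They were measured by bulk RNA sequencing in diaphragm, the breathing muscle, and in gastrocnemius, soleus and tibialis anterior (TA) of the lower limb. The libraries came from male Sprague Dawley rats of 7 ages: 6, 9 and 12 months, 18 and 21 months, and finally 24 and 27 months. There were 83 libraries of diaphragm, 73 of gastrocnemius, 84 of soleus and 85 of TA, with 9 to 13 in each group of a muscle and an age. The rats were bought from Envigo, housed in pairs and fed freely, and the labels name no treatment or allele. The comparison asked how these genes change with age in each muscle, taking 6 months as the young reference.

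The complexes sit in the inner mitochondrial membrane. Complex III passes electrons from ubiquinol to cytochrome c, complex IV (cytochrome c oxidase) passes them on to oxygen, and both pump protons. Complex V, the ATP synthase, lets the protons flow back and makes ATP. Most subunits are encoded in the nucleus, and a few catalytic ones in the mitochondrial genome. Several complex IV subunits exist as isoforms encoded by separate genes, with Cox6a2 and Cox8b as the heart and skeletal muscle forms of the subunits whose widespread forms are Cox6a1 and Cox8a. The mitochondrially encoded subunits and the genes Cox7a1 and Cox6b1 were not analysed here.

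Tissue of 1 age group was collected on 1 day, and age thus cannot be told apart from the day of collection. The numbers given to the libraries form 3 series. All gastrocnemius libraries belong to the first series, and all 12-month libraries of the other muscles, with 1 library at 21 months in each of these muscles, belong to the last. Differences between the gastrocnemius and another muscle, and those at 12 months in the other muscles, therefore cannot be told apart from that series. The median share of counts on ribosomal RNA genes was 1.96% in gastrocnemius and 0.257% to 0.391% in the other muscles. Each library held 17.6 to 85.3 M counts (median 31.9 M). Libraries of a group came from separate rats, but which rat gave which muscles is not in the labels. These are whole-tissue libraries, in which fewer muscle fibres and less RNA of these genes per fibre cannot be told apart.

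At 27 months these genes were lower than at 6 months in each of the 3 limb muscles and not, as a group, in diaphragm. The median change was -0.44 on the log2 scale in gastrocnemius, -0.47 in soleus and -0.43 in TA, against 0.02 in diaphragm. The median over all genes tested was 0.04, 0.02, 0.02 and 0.00 in the same order. A gene was called changed when its Benjamini-Hochberg adjusted p in limma-voom was under 0.05 and its change was over 1.5-fold. By that rule 13 of 39 tested members fell in gastrocnemius (7.76% of all genes tested), 7 of 39 in soleus (5.78%) and 6 of 38 in TA (10.4%). In diaphragm 1 of 39 fell (4.25%), the scarcely expressed Cox6b2, and no member was called higher in any muscle, where 20, 34, 36 and 37 members of the diaphragm, gastrocnemius, soleus and TA had an unadjusted p under 0.05. Such a p was given to 6208 of 12035, 7777 of 11865, 7104 of 12175 and 8890 of 11754 genes tested, in that order. Cox8c and Cox6c-ps1 had too few counts to be tested in any muscle, and Cox6b2 in TA.

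The falls were broad and of moderate size. By adjusted p alone, 32 members were lower in gastrocnemius (28.9% of all genes), 35 in soleus (26.4%) and 34 in TA (36.5%). In diaphragm 11 were lower (24.7%) and 8 were higher (20.3%). Higher members numbered 1 in gastrocnemius (33.2%), 1 in soleus (27.4%) and 2 in TA (37.7%). The complexes fell by similar amounts: the median changes of complexes III, IV and V were -0.50, -0.42 and -0.45 in gastrocnemius, -0.56, -0.43 and -0.46 in soleus, and -0.46, -0.42 and -0.43 in TA. In diaphragm they were -0.02, 0.05 and 0.02.

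**Figure D1:**
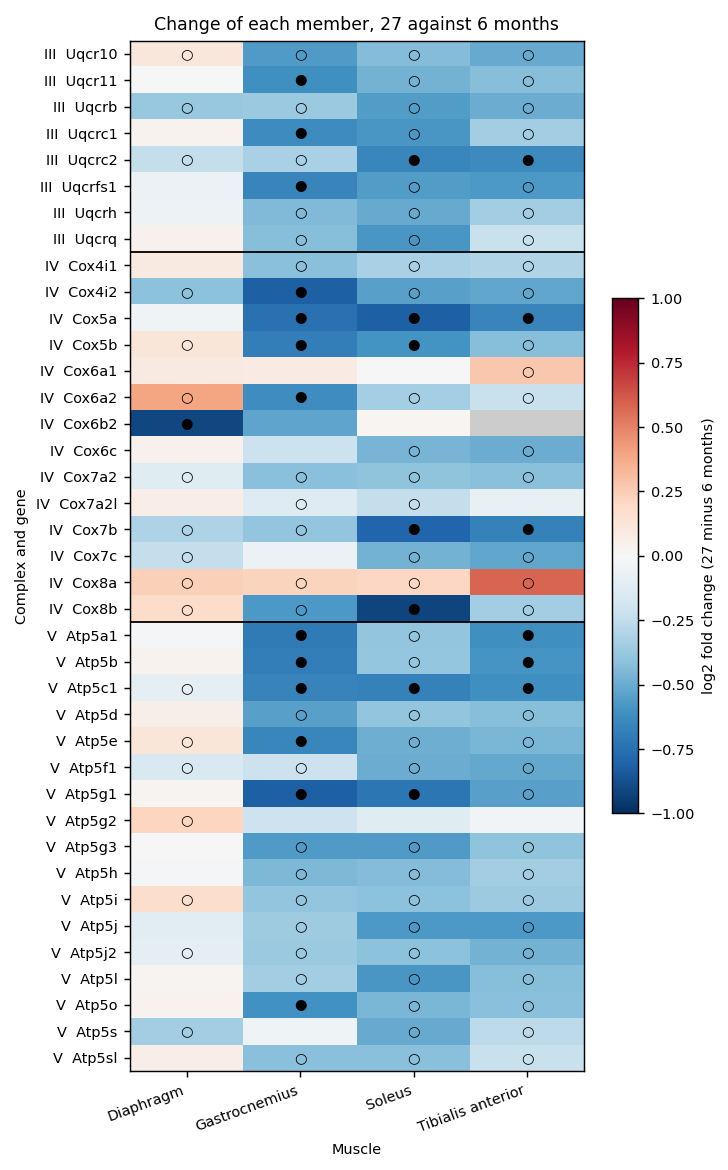
Log2 change from 6 to 27 months of each tested member (rows, by complex) in each muscle (columns), as colour, with a filled circle for a called change, an open circle for an adjusted p under 0.05 only and grey where a gene was not tested. Most members are blue in the 3 limb muscles, while the diaphragm column mixes both colours, and Cox8a is above 0 in all 4 columns.

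These sizes rest on the scaling of the libraries. The values above use TMM factors, which align the bulk of the genes. When counts were scaled to the total count instead, the median of all genes moved to 0.32 in gastrocnemius, 0.16 in soleus, 0.34 in TA and 0.04 in diaphragm. The member medians then were -0.16, -0.32, -0.11 and 0.06. Relative to all genes, the members stood at -0.48 in gastrocnemius and -0.49 in soleus under both scalings, at -0.44 and -0.45 in TA, and at 0.02 in diaphragm. By adjusted p alone, total-count scaling gave 19 lower and 4 higher members in gastrocnemius, 35 and 1 in soleus, 16 and 5 in TA, and 7 and 11 in diaphragm. With the 1.5-fold limit it called no member in gastrocnemius, where 23 passed by adjusted p alone, and Cox5a, Cox7b and Cox8b lower in soleus. In TA it called Cox6a1 and Cox8a higher and none lower. The shares of all genes that passed or were called under total-count scaling are not given here. Of all genes, 13.1%, 10.1%, 16.9% and 53.6% lay below the member median under it, in gastrocnemius, soleus, TA and diaphragm. Under TMM these shares were 13.0%, 10.1%, 17.2% and 53.7%. Both edgeR quasi-likelihood and DESeq2 also called Cox8a higher in TA. With the ribosomal RNA share in the model, chosen after seeing the data, 2 members were called in TA, Atp5g1 and Cox5a, and with sample weights 8 in gastrocnemius. Below, a change is a difference on the log2 scale under TMM scaling unless said otherwise. Levels are CPM, the counts of a gene scaled to a fixed library total after TMM adjustment. They are given as the lowest, the median and the highest library of a group. TMM factors were set within 1 muscle for changes, and over all libraries for levels and differences between muscles. Levels and changes can therefore differ slightly, and narrow gaps between age groups hold only for the levels as scaled here.

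All 8 complex III genes passed the adjusted p as lower in each limb muscle. Uqcrc1 and Uqcrc2 encode the large core proteins on the matrix side, and Uqcrfs1 the Rieske iron-sulfur protein, which takes electrons from ubiquinol. In soleus, the Uqcrc2 levels were 647, 696 and 759 CPM at 6 months and 324, 444 and 690.2 CPM at 27 months. The 27-month libraries reached up into the young range, but their median lay below the lowest young library. The change was -0.65 (SE 0.065, adjusted p = 3.02e-14), and it was -0.64 (SE 0.082, adjusted p = 1.18e-10) in TA. There the levels went from 719, 827 and 919 CPM to 384, 528 and 795 CPM. In gastrocnemius Uqcrc2 passed only the adjusted p, with a change of -0.33 (SE 0.086, adjusted p = 0.000769). Uqcrc2 also passed as lower in diaphragm, at -0.24 (SE 0.069, adjusted p = 0.00283).

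Uqcrfs1 showed the largest fall of the complex in gastrocnemius. Its levels there were 413, 451 and 573 CPM at 6 months and 183, 313 and 444 CPM at 27 months. The ranges overlapped, and the 27-month range was the wider. The change was -0.66 (SE 0.10, adjusted p = 1.03e-07). It was -0.56 in soleus and -0.57 in TA, both with an adjusted p under 0.05 but short of the 1.5-fold limit, and -0.06 (SE 0.036, adjusted p = 0.196) in diaphragm. Uqcrc1 was called in gastrocnemius at -0.63 (SE 0.11, adjusted p = 2.64e-06). In soleus all 27-month libraries, at 132, 185 and 259.5 CPM, lay below all 6-month libraries, at 259.9, 274 and 293 CPM, but the ranges nearly touched. The change of -0.58 stayed just under the limit of 1.5-fold. Of the small subunits, Uqcr11 was called in gastrocnemius at -0.61 (SE 0.11, adjusted p = 1.59e-06), and Uqcrb, Uqcrq, Uqcrh and Uqcr10 changed by -0.35 to -0.58 in the limb muscles, apart from Uqcrq in TA at -0.22. Uqcrb was lower in diaphragm too, at -0.38 (SE 0.068, adjusted p = 3.75e-06).

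In complex IV, Cox5a was called lower in all 3 limb muscles, and the only other member of which this was true was Atp5c1 of complex V. Cox5a encodes a matrix-facing subunit next to Cox4. In soleus its levels were 116, 125 and 131 CPM at 6 months and 45.7, 71.6 and 112 CPM at 27 months. In TA they were 179, 201 and 246 CPM and 94.3, 141 and 176 CPM. In both muscles no old library reached the lowest young one. The changes were -0.82 (SE 0.075, adjusted p = 7.07e-16) in soleus and -0.66 (SE 0.082, adjusted p = 2.6e-11) in TA. In gastrocnemius the levels went from 306, 352 and 483 CPM to 145, 219 and 328 CPM, and the ranges overlapped. The change there was -0.74 (SE 0.11, adjusted p = 1.23e-08). In diaphragm Cox5a stood at 127, 145 and 161 CPM at 6 months and 122, 145 and 157 CPM at 27 months, with a change of -0.03 (SE 0.039, adjusted p = 0.526).

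Cox5b, the zinc-binding neighbour of Cox5a in the enzyme, was called in gastrocnemius at -0.69 (SE 0.096, adjusted p = 4.18e-09), where its levels of 410.0, 447 and 531 CPM fell to 196, 297 and 402 CPM with no overlap, and in soleus at -0.60 (SE 0.072, adjusted p = 3.55e-11). In diaphragm it passed as higher, by 0.12. Cox7b, a small membrane-spanning subunit, fell most in soleus and TA. Its soleus levels were 186, 212 and 220.1 CPM at 6 months and 71.5, 116 and 176 CPM at 27 months. The groups did not overlap, and the change was -0.79 (SE 0.080, adjusted p = 4.82e-14). In TA the ranges overlapped, with a change of -0.67 (SE 0.087, adjusted p = 1.29e-10). Cox4i1, the common form of the largest nuclear-encoded subunit, changed less, by -0.42, -0.33 and -0.30 in gastrocnemius, soleus and TA, each with an adjusted p under 0.05. In TA its direction turned under total-count scaling, to 0.02. Cox6c, Cox7c and Cox7a2 passed as lower in soleus and TA, by -0.40 to -0.52, and only Cox7a2 of them in gastrocnemius, by -0.42. Cox7a2l, which helps join complexes III and IV into supercomplexes, moved little: its changes were 0.07, -0.13, -0.24 and -0.07 in diaphragm, gastrocnemius, soleus and TA, of which those in gastrocnemius and the soleus passed.

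The muscle forms of subunits 6a and 8 went down with age in the limb muscles while their widespread forms did not. Promoter stretches of genes in these pairs, and of Atp5g2 of complex V, which likewise did not pass as lower in any muscle, are shown first because the members of a pair encode like proteins yet moved apart. Each is the 200 bases before the transcription start on the minus strand of the RefSeq GRCr8 assembly, written 5′ to 3′: Cox8b at chr1:205408274-205408473, Cox8a at chr1:213833624-213833823, Cox6a2 at chr1:192219717-192219916 and Atp5g2 (now Atp5mc2) at chr7:135678219-135678418. Capitals mark matches, on either strand, to the E-box CAGCTG read by myogenic factors, the TATA box TATAAA, the ETS motif CCGGAAG and the NRF1 motif GCGCATGC.
Cox8b: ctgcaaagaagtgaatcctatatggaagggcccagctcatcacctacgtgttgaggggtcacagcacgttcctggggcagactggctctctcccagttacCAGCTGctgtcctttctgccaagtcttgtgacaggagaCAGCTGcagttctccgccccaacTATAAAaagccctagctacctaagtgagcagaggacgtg
Cox8a: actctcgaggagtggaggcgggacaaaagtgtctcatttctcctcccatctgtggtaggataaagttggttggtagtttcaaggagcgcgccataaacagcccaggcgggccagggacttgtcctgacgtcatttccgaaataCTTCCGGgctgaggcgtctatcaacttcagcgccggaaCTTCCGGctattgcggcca
Cox6a2: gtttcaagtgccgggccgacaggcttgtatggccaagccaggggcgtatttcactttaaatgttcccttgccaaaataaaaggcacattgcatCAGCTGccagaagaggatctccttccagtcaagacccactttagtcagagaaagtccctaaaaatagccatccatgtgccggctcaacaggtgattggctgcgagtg
Atp5g2: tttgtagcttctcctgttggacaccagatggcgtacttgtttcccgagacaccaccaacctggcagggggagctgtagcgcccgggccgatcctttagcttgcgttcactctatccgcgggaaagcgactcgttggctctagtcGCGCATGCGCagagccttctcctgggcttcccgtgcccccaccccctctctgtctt

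The Cox8b stretch held a pair of E-boxes and a TATA box and the Cox6a2 stretch 1 E-box, while the Cox8a stretch held a pair of ETS matches and the Atp5g2 stretch overlapping NRF1 matches. In windows from 250 bases before to 50 after the start, found for 33 of the 41 members, the E-box was present in 8 (24.2%), against 15.1% of all 27457 windows, and the TATA box in 3 (9.09% against 14.3%). The NRF1 motif was in 6 (18.2% against 2.66%), the ETS motif in 11 (33.3% against 9.22%), the ERR motif AAGGTCA in 6 (18.2% against 4.37%) and the YY1 motif AANATGGC in 10 (30.3% against 7.36%). Both strands were searched, and no match of these motifs overlaps a match of another in the printed stretches. Besides Cox8b and Cox6a2, the E-box lay in the windows of Atp5e, Atp5o, Cox4i1, Cox7b, Cox8c and Uqcrfs1. The TATA box also lay in those of Atp5l and Uqcr10. Outside its printed stretch, the Cox8a window held a YY1 match across the start and an ERR match after it. The Atp5g1 window held none of these motifs, and no window was found for Cox6a1. A match says only that these letters are present.

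Cox8b had the largest fall of any member in soleus. Its levels there were 160.0, 174 and 195 CPM at 6 months and 60.9, 88.2 and 149 CPM at 27 months. Every old library lay below every young one. The change was -0.92 (SE 0.084, adjusted p = 9.11e-16). Cox8b also passed as lower in gastrocnemius, at -0.57 (SE 0.076, adjusted p = 1.22e-09), and TA, at -0.34 (SE 0.067, adjusted p = 4.54e-06), short of the 1.5-fold limit. In diaphragm its levels of 142, 181 and 198 CPM became 180.3, 208 and 244 CPM, and it passed as higher, by 0.19 (SE 0.047, adjusted p = 0.000677). Cox8a rose in all 4 muscles by adjusted p, by 0.24 in diaphragm, 0.23 in gastrocnemius, 0.21 in soleus and 0.58 in TA. In the last its levels went from 8.92, 13.5 and 17.1 CPM to 13.7, 19.5 and 28.7 CPM, with overlap. The rise there was 0.58 (SE 0.10, adjusted p = 4.82e-07).

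Within each library, the log2 ratio of Cox8b to Cox8a depends little on the scaling. In soleus its lowest, median and highest values were 2.89, 3.13 and 3.39 at 6 months and 1.30, 1.89 and 2.92 at 27 months. Its mean changed by -1.12 (SE 0.14, adjusted p = 0.0002), by -0.80 (SE 0.10, adjusted p = 0.0002) in gastrocnemius and by -0.93 (SE 0.10, adjusted p = 0.0002) in TA. In diaphragm the change was -0.04 (SE 0.073, adjusted p = 0.548). These are 2-sided permutation tests with 100000 resamples, adjusted over the 20 ratios tested, and 2e-05 is the smallest unadjusted p that they can give.

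Cox6a2 moved in opposite directions in diaphragm and the limb. In diaphragm its levels were 976, 1110.1 and 1359.5 CPM at 6 months and 1394, 1538 and 1679 CPM at 27 months. In these levels the old libraries all lay narrowly above the young ones. The mean log2 CPM was 10.14 at 6 months and 10.57 at 27 months. With TMM factors set within the diaphragm the change was 0.39 (SE 0.050, adjusted p = 6.14e-10). In gastrocnemius the levels fell from 1496, 1906 and 2413 CPM to 1031, 1255 and 1604 CPM, with overlap and a change of -0.62 (SE 0.094, adjusted p = 3.31e-08). The soleus and TA changed by -0.34 and -0.22, both past the adjusted p, though the second was 0.10 under total-count scaling. Cox6a1 passed only in TA, as higher, by 0.27 (SE 0.080, adjusted p = 0.00183). The log2 ratio of Cox6a2 to Cox6a1 rose by 0.29 (SE 0.092, adjusted p = 0.00184) in diaphragm. It fell in the limb, with changes of -0.70 (SE 0.13, adjusted p = 0.000343) in gastrocnemius, -0.34 (SE 0.10, adjusted p = 0.0039) in soleus and -0.49 (SE 0.085, adjusted p = 0.00024) in TA by the same permutation test.

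**Figure D2:**
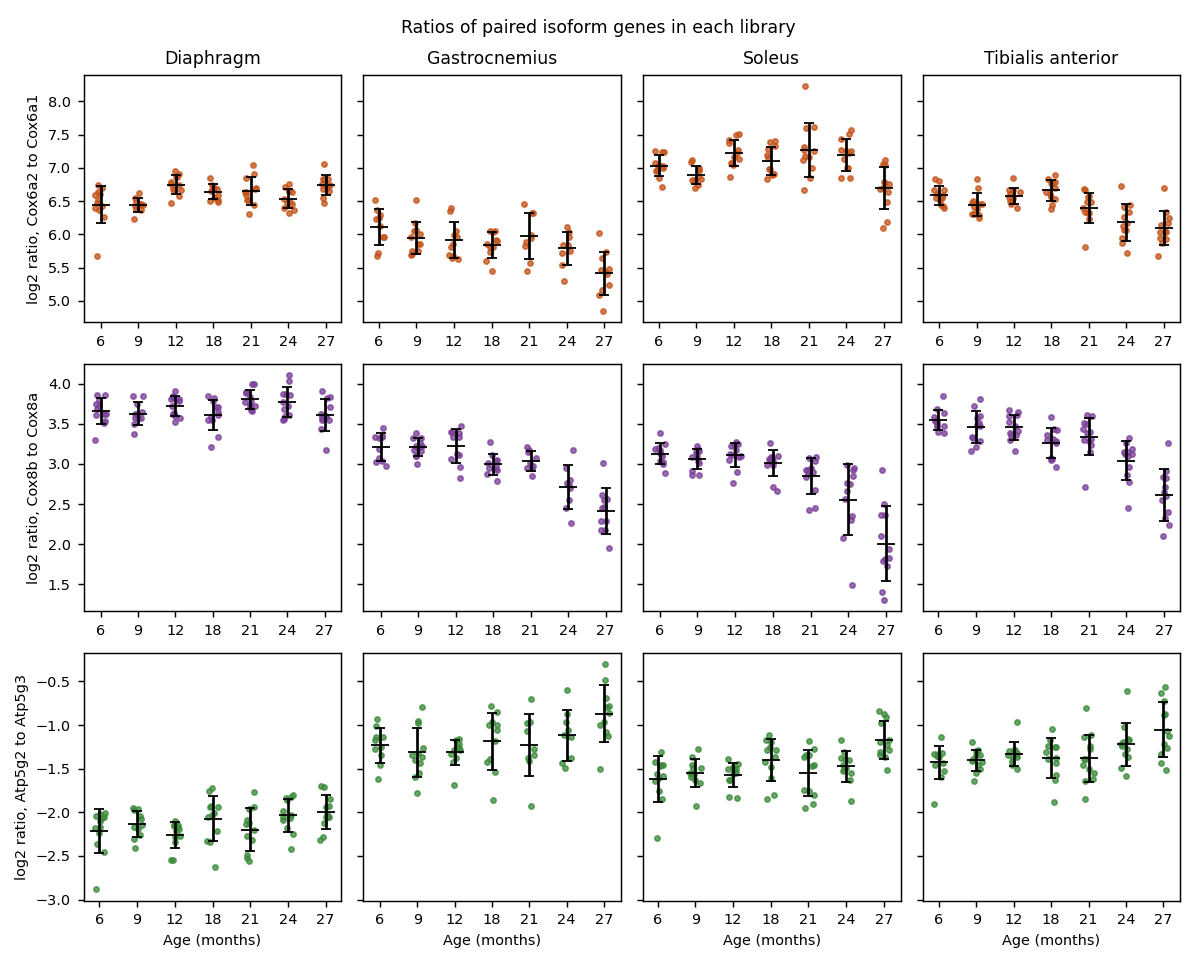
Log2 ratio of Cox6a2 to Cox6a1, Cox8b to Cox8a and Atp5g2 to Atp5g3 (y axis) in each library, by muscle and age in months (x axis), with the mean and SD of each group. The first ratio is higher at 27 than at 6 months in diaphragm, where it was already higher at 12 months, and lower in the limb muscles. In soleus its mean is 7.03 at 6 months, 7.22 at 12, 7.19 at 24 and 6.69 at 27. The second ratio drops in the limb muscles only among these 4 muscles, and the last goes up in all 4.

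Other isoforms of complex IV were scarce. Cox4i2, the lung and vascular form of Cox4, stood at 1.78, 2.76 and 3.19 CPM in gastrocnemius at 6 months and 1.07, 1.5 and 1.81 CPM at 27 months, with slight overlap. It was called there at -0.81 (SE 0.13, adjusted p = 2.41e-07) and passed the adjusted p as lower elsewhere, by -0.41 in diaphragm, -0.54 in soleus and -0.52 in TA. Its ratio to Cox4i1 fell in diaphragm, by -0.54 (SE 0.11, adjusted p = 0.000333), and in gastrocnemius, by -0.40 (SE 0.12, adjusted p = 0.00446). In soleus and TA the ratio changed by -0.21 and -0.18, which did not pass (adjusted p = 0.276 and 0.128). Of 6 smooth muscle and pericyte markers, 4, 3, 4 and 3 passed as lower in diaphragm, gastrocnemius, soleus and TA. The shares of all genes were 24.7%, 28.9%, 26.4% and 36.5%. In gastrocnemius 1 marker passed as higher, and in TA 2, with 1 in each of these muscles over 1.5-fold. The median change of the markers was -0.20, -0.28, -0.37 and -0.21 in diaphragm, gastrocnemius, soleus and TA. Among the markers that fell, the pericyte marker Rgs5 was lower in all 4 muscles, by -0.83, -0.60, -0.73 and -0.71 in the same order. For Kcnj8 the changes were -0.35, -1.11, -0.66 and -0.78. The part of such cells in the Cox4i2 values was not tested. Cox6b2, known from testis, lay at 0.206, 0.646 and 1.29 CPM in diaphragm at 6 months and 0.0647, 0.474 and 0.912 CPM at 27 months, a change of -0.91 (SE 0.34, adjusted p = 0.023) between groups that largely overlapped. This call did not hold with Bonferroni adjustment, with sample weights or with the ribosomal RNA share in the model.

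In complex V, the catalytic head fell in the limb muscles. Atp5a1 and Atp5b encode its alternating alpha and beta subunits, and Atp5c1 the central gamma stalk that turns within them. Atp5c1 was called in all 3 limb muscles. In soleus its levels were 534, 561 and 606 CPM at 6 months and 242, 353 and 483 CPM at 27 months. The TA went from 649.9, 698 and 751 CPM to 305, 452 and 610.0 CPM and the gastrocnemius from 580.4, 662 and 761 CPM to 290.1, 392 and 568 CPM. In none of the 3 did the age groups overlap. The changes were -0.67 (SE 0.080, adjusted p = 4.39e-11) in gastrocnemius, -0.68 (SE 0.061, adjusted p = 4.17e-16) in soleus and -0.61 (SE 0.078, adjusted p = 8.16e-11) in TA. The diaphragm gave -0.10 (SE 0.035, adjusted p = 0.0164).

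Atp5b had 3003, 3226 and 3376 CPM in TA at 6 months and 1472, 2222 and 2884 CPM at 27 months, without overlap. It was called there at -0.59 (SE 0.077, adjusted p = 1.62e-10) and in gastrocnemius at -0.69 (SE 0.088, adjusted p = 2.88e-10). Atp5a1 was called in the same muscles, at -0.61 (SE 0.085, adjusted p = 1.16e-09) and -0.71 (SE 0.11, adjusted p = 2.84e-08). In soleus both fell short of the fold limit, with -0.39 for Atp5b and -0.40 for Atp5a1. Their diaphragm changes were 0.04 (SE 0.039, adjusted p = 0.469) and -0.01 (SE 0.040, adjusted p = 0.802). Atp5e, the epsilon subunit of the central stalk, was called in gastrocnemius at -0.65, and Atp5o, the cap of the outer stalk, at -0.60.

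The membrane ring of ATP synthase is built from c subunits with identical mature protein encoded by Atp5g1, Atp5g2 and Atp5g3, and these genes moved apart. Atp5g1 levels in gastrocnemius were 388, 472 and 613 CPM at 6 months and 178, 282 and 369 CPM at 27 months. In soleus they were 251, 276 and 321 CPM and 102, 163 and 233 CPM. Neither muscle showed any overlap of young and old. Its changes were -0.82 (SE 0.10, adjusted p = 2.49e-10) and -0.72 (SE 0.071, adjusted p = 1.24e-14), and -0.54 (SE 0.11, adjusted p = 3.76e-06) in TA. Atp5g3 fell by less, with -0.57, -0.57 and -0.40 in gastrocnemius, soleus and TA. Atp5g2 did not pass in any limb muscle: its changes were -0.21, -0.12 and -0.03 in that order, and under total-count scaling 0.08, 0.03 and 0.29. In diaphragm it passed as higher, by 0.22 (SE 0.080, adjusted p = 0.0217). The log2 ratio of Atp5g2 to Atp5g3 rose in all 4 muscles by the permutation test, by 0.21 (SE 0.092, adjusted p = 0.0291) in diaphragm, 0.36 (SE 0.12, adjusted p = 0.00792) in gastrocnemius, 0.45 (SE 0.098, adjusted p = 0.0002) in soleus and 0.37 (SE 0.11, adjusted p = 0.00265) in TA. As a difference of medians, the diaphragm value was 0.10 with an adjusted p of 0.0729. The ratio of Atp5g1 to Atp5g3 fell in the limb muscles, by -0.25, -0.15 and -0.15, with adjusted p of 0.00045, 0.00116 and 0.00446 by that test.

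The other tested subunits and stalk members of complex V, Atp5d, Atp5f1, Atp5h, Atp5i, Atp5j, Atp5j2 and Atp5l, passed as lower in all 3 limb muscles, by -0.22 to -0.58. Atp5f1, the b subunit of the outer stalk, is listed on 2 lines whose counts were equal in 70 libraries, so its summed value is uncertain. Atp5s and Atp5sl carry the family prefix but are now named Dmac2l and Dmac2, and are not subunits of the enzyme. Atp5sl passed as lower in the limb muscles, by -0.42, -0.42 and -0.22, and Atp5s in soleus, TA and diaphragm, by -0.51, -0.26 and -0.35.

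Most of the fall came after 18 months. At 9 months the member medians lay between -0.05 and 0.03 in the 4 muscles, and at 12 months between -0.09 and 0.00. At 18 months they were -0.04 in diaphragm, -0.16 in gastrocnemius, 0.07 in soleus and -0.03 in TA. By limma-voom no member was called at 9, 12, 18 or 21 months in any muscle. The share of all genes called in either direction, in the order diaphragm, gastrocnemius, soleus and TA, was 0.108%, 0.143%, 0.123% and 0.00851% at 9 months. It was 0.532%, 0.885%, 0.353% and 0.196% at 12 months, 2.25%, 4.32%, 2.84% and 5.45% at 18 months and 1.68%, 5.81%, 2.61% and 6.47% at 21 months. An unadjusted p under 0.05 was given to 3, 0, 2 and 1 members at 9 months, 6, 0, 11 and 0 at 12 months, 15, 16, 12 and 7 at 18 months, and 14, 11, 21 and 3 at 21 months. Of the 12035, 11865, 12175 and 11754 genes tested, 1142, 1081, 1652 and 1017 had one at 9 months. These numbers were 1949, 1826, 2012 and 1138 at 12 months and 4405, 3150, 4384 and 5146 at 18 months. At 21 months they were 2701, 3717, 3260 and 4520.

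By adjusted p alone, 9 members were lower (13.7% of all genes) and 2 higher (9.66%) in diaphragm at 18 months, 6 were lower in gastrocnemius (6.14%), where all 39 lay below 0, and 4 in TA (17.7%). The soleus then had 7 higher members (13.1%) and none lower, with 12 at an unadjusted p under 0.05 by limma-voom. At 21 months 13 of its members were lower (7.29% of all genes), against 3 in gastrocnemius (8.7%), 2 in diaphragm (4.86%) and 1 in TA (11.8%). Among the 13 were Cox5a at -0.30, Cox8b at -0.28 and Atp5g1 at -0.26. At 24 months 30 members were lower in gastrocnemius (27.9%), 30 in soleus (16.1%), 29 in TA (27.7%) and 7 in diaphragm (5.33%). Only the gastrocnemius then had called members, 12 lower (7.41%). Its largest falls were Cox4i2 at -1.09 (SE 0.15, adjusted p = 1.27e-08), Cox5a at -0.77 (SE 0.11, adjusted p = 2.29e-08) and Atp5g1 at -0.76 (SE 0.11, adjusted p = 1.32e-08). No member was called at 24 months in diaphragm (2.68% of all genes in either direction), the soleus (6.51%) or TA (14.5%) by limma-voom, where 15, 33 and 31 members had an unadjusted p under 0.05. So had 2885 of 12035, 4961 of 12175 and 7211 of 11754 genes tested.

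Between 21 and 27 months 28 members fell by adjusted p in gastrocnemius (21.2%), 33 in soleus (20.8%) and 32 in TA (33.8%). In diaphragm 5 fell (20.2%) and 18 rose (16.4%). Cox8b was called over this span in soleus, at -0.64 (SE 0.084, adjusted p = 2.3e-09) (1 member, against 2.8% of all genes), and Cox7b and Uqcrc2 in TA, at -0.63 and -0.60 (2 members, against 6.33%). Diaphragm Cox6a2 did not climb steadily: its median was 1110 CPM at 6 months, 1401 at 18, 1094 at 24 and 1538 at 27. Soleus Cox8b had medians of 188 CPM at 18 months, 150.5 at 21, 123 at 24 and 88.2 at 27.

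**Figure D3:**
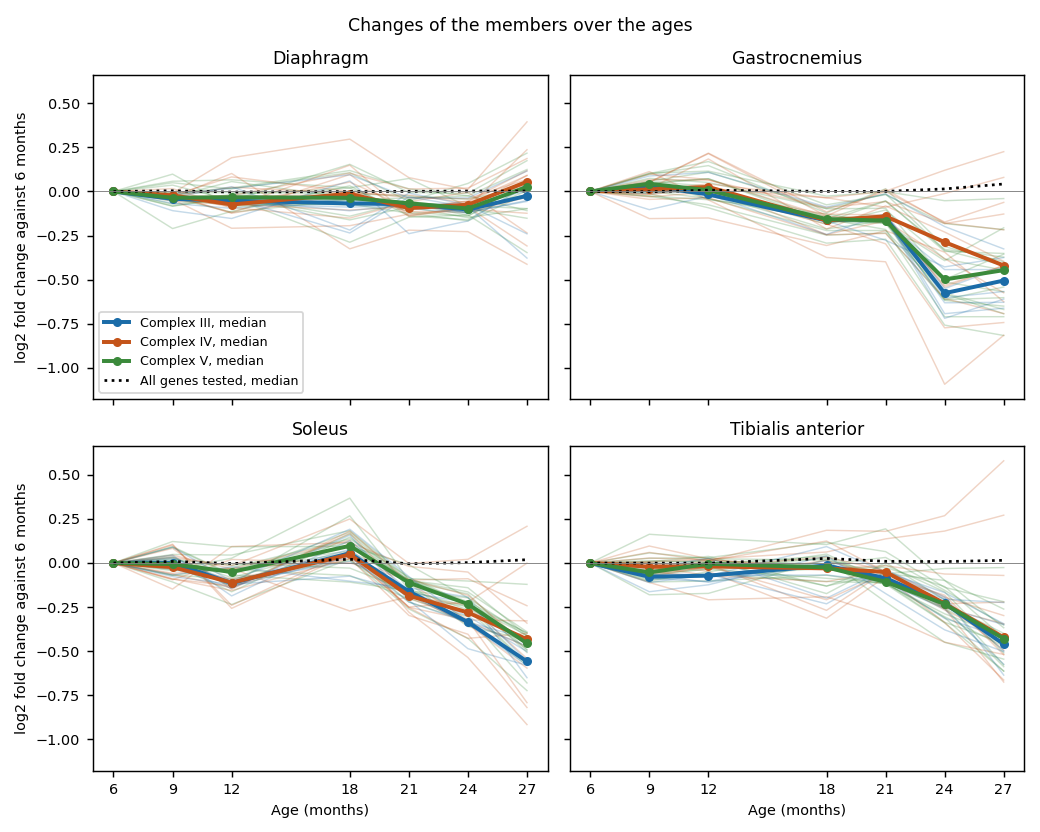
Log2 change against 6 months (y axis) of each member (thin lines) and the median of each complex (thick lines) at each age in months (x axis), 1 panel per muscle, with the median of all genes dotted and Cox6b2 left out. The limb panels bend down at 24 and 27 months, where the medians of the complexes end between -0.42 and -0.56, and the diaphragm panel stays near 0.

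Models of log2 CPM on age (no trend, linear or logistic, compared by the Bayesian information criterion) placed most falls of the soleus and TA late. In soleus 35 members had a trend (40.2% of all genes), all falling, 32 of them a logistic one with its turning point after 21 months. In TA 35 had one (64.9%), of which 33 were falling and 28, in either direction, were late. In gastrocnemius 32 had one (55.1%), all falling, of which 24 were linear and 8 late. In diaphragm 7 had one (29.6%), of which 5 were falling. Of the 7, 6 were linear and 1 late. The shares of all genes given so far count trends in either direction and of any shape. Shares for falling trends alone or late trends alone are not given here, so the late counts have no background. Members both called at some age and falling along a trend numbered 15 in gastrocnemius (8.94% of all genes), 7 in soleus (5.17%), 6 in TA (10.4%) and 0 in diaphragm (3.69%), where 20 members had an unadjusted p under 0.05 at 27 months. Cox5a was late in all 3 limb muscles, with fitted turning points at 21.5 months in gastrocnemius, 24.25 in TA and 27, the end of the range searched, in soleus.

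Old limb libraries also differed more among themselves. The mean log2 CPM over the 38 members tested in all 4 muscles was 7.88 ± 0.07 (SD, n = 10) in gastrocnemius at 6 months and 7.43 ± 0.25 (n = 11) at 27 months. In soleus it was 7.0 ± 0.04 and 6.51 ± 0.21, and in TA 7.41 ± 0.09 and 7.02 ± 0.25 (n = 12 in each). In diaphragm it was 7.25 ± 0.09 and 7.28 ± 0.09 (n = 12 in each). The SD among libraries was thus larger at 27 than at 6 months in each limb muscle, and the same to the last digit given in diaphragm. In gastrocnemius it was already 0.11 at 9 months, 0.14 at 12, 0.15 at 18, 0.14 at 21 and 0.20 at 24. At 27 months single libraries ranged from 6.07 to 6.91 in soleus and from 6.68 to 7.32 in TA, against 6.95 to 7.08 and 7.22 to 7.55 at 6 months. The age groups did not overlap in soleus and overlapped in TA. The summed level of the 17 complex V symbols in TA was 8592, 9163 and 9714 CPM at 6 months and 4404, 6537 and 8215 CPM at 27 months.

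**Figure D4:**
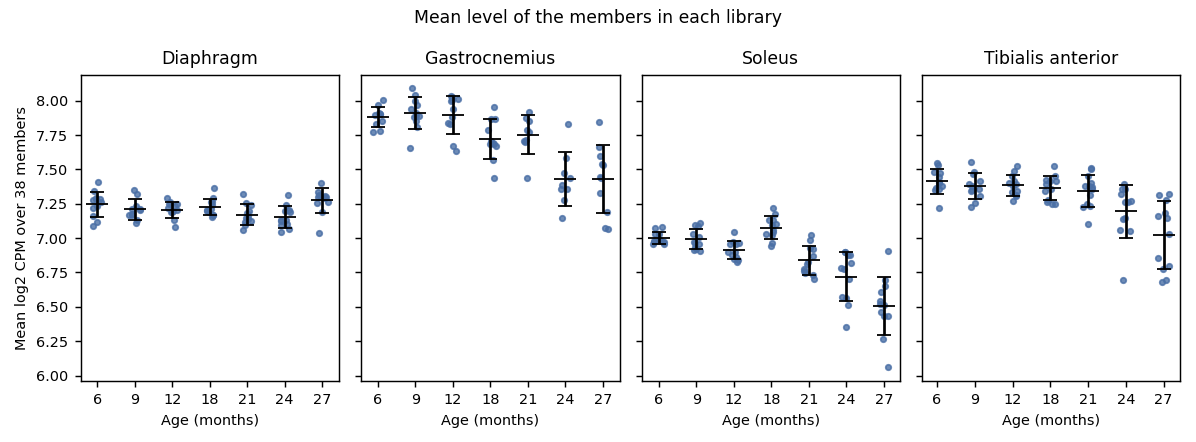
Mean log2 CPM over the 38 members tested in all muscles (y axis), 1 point per library, by age in months (x axis) and muscle (panels), with the mean and SD of each group. The points of the limb muscles spread downwards at 24 and 27 months, while those of the diaphragm stay within 7.04 to 7.41.

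The change at 27 months was then compared between muscles by interaction terms in 1 model over all libraries. Against the diaphragm, 17 of 39 members had a lower change in gastrocnemius (7.77% of all genes), 13 in soleus (5.56%) and 9 in TA (7%), by adjusted p and 1.5-fold, and none had a higher one. Under total-count scaling, 2, 5 and 2 members passed both limits in either direction, and with sample weights 11 did in gastrocnemius. The shares of all genes under these alternatives are not given here. The model treats libraries of different muscles as independent. With libraries of 1 age and replicate number as a block, the counts in either direction were 17, 13 and 10. The median difference in change was -0.51, -0.52 and -0.45. Cox6a2 differed most in gastrocnemius, by -1.07 (SE 0.097, adjusted p = 7.23e-21), Cox8b in soleus, by -1.16 (SE 0.10, adjusted p = 7.25e-23), and Cox5a in TA, by -0.68 (SE 0.11, adjusted p = 3.41e-08). Members that differed from the diaphragm in each limb muscle were Atp5e, Atp5g1, Atp5i, Cox5a, Cox5b, Cox6a2 and Uqcr10. Between limb muscles no member passed both limits: the share of all genes that did, in either direction, was 14.5% for soleus and gastrocnemius, 7.32% for TA and gastrocnemius and 15.8% for TA and soleus. There 12, 14 and 9 members had an unadjusted p under 0.05, and 11, 6 and 6 an adjusted one, by limma-voom, and RLE scaling gave 1 call between TA and soleus. Of all 12784 genes, 6122, 4637 and 5901 had such an unadjusted p. By adjusted p, 2783 had a lower and 2375 a higher change in soleus than in gastrocnemius. For TA against gastrocnemius these numbers were 1913 and 1534, and for TA against soleus 2355 and 2612.

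At 6 months the muscles already differed in these genes. Of 39 members, 29 were lower in soleus than in gastrocnemius (21.3% of all genes), with a median difference of -0.83, and 14 were lower in TA than in gastrocnemius (10.7%). In gastrocnemius 18 were higher than in diaphragm (16.5%), but these comparisons cannot be told apart from the number series. Among the others, 16 were higher in TA than in soleus (18.8%), 3 were higher in TA than in diaphragm (12.8%) and 3 were lower in soleus than in diaphragm (13.7%). Cox6a2 went its own way, being higher in soleus than in diaphragm, by 0.88 (SE 0.066, adjusted p = 1.71e-30), and lower in TA than in soleus, by -0.87 (SE 0.066, adjusted p = 1.66e-30). Cox7a2 was higher in TA than in soleus, by 1.18 (SE 0.078, adjusted p = 9.46e-38), the largest difference of that pair. Atp5i, the e subunit, showed the largest differences with the gastrocnemius: its levels there were 103, 114 and 139 CPM at 6 months, against 14.1, 19.6 and 22.6 CPM in diaphragm and 12.3, 16.9 and 18.5 CPM in soleus. No library of the last 2 muscles came near the gastrocnemius range. Cox6b2 was lower in soleus and TA than in diaphragm, by -1.79 (SE 0.35, adjusted p = 2.79e-06) and -1.94 (SE 0.37, adjusted p = 7.98e-07), at levels near or below 1 CPM.

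Genes that work with these complexes but do not share their names were taken from lists of partners and assembly factors. Cycs, the cytochrome c that carries electrons from complex III to IV, was called lower in all 4 muscles. In TA its levels were 1518, 1612 and 1732 CPM at 6 months and 410.4, 700.3 and 1236 CPM at 27 months, with no overlap. The changes were -1.20 (SE 0.11, adjusted p = 1.06e-15) there, -1.06 in soleus, -0.64 in gastrocnemius and -0.67 (SE 0.079, adjusted p = 6.54e-11) in diaphragm, where 11 of 39 members passed as lower. Ndufa4l2, a hypoxia-induced relative of the complex IV subunit Ndufa4, was called lower in all 4 as well, at -0.68, -1.23, -0.65 and -0.73 in diaphragm, gastrocnemius, soleus and TA. Atpif1, the inhibitor of ATP synthase, went up in gastrocnemius, at 0.93 (SE 0.11, adjusted p = 2.51e-11), and in TA, at 1.12 (SE 0.088, adjusted p = 1.37e-19), and passed as higher in diaphragm at 0.37. In soleus it changed by 0.07 (SE 0.055, adjusted p = 0.302). Cyc1, the cytochrome of complex III, passed as lower in the limb muscles, by -0.52, -0.52 and -0.38.

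Of the 5 complex III assembly genes in the files, 4, 3 and 5 passed as lower in gastrocnemius, soleus and TA, and 1 in diaphragm. Of all genes tested, 28.9%, 26.4%, 36.5% and 24.7% passed as lower in that order. The same shares apply to the list counts that follow. Ttc19, needed to complete the complex, fell furthest, by -0.97 (SE 0.092, adjusted p = 1.22e-14) in gastrocnemius, -0.79 (SE 0.095, adjusted p = 2.97e-11) in soleus and -1.05 (SE 0.11, adjusted p = 3.39e-14) in TA. Of 19 complex IV assembly genes, 10, 12 and 12 passed as lower in those muscles and 4 in diaphragm, with Coa5 called at -0.89 in soleus and -0.66 in TA. Of 4 complex V assembly genes, 4, 4 and 3 were lower, and 1 in diaphragm, with Fmc1 at -0.63 in gastrocnemius and -0.65 in soleus. All 4 subunits of complex II passed as lower in each limb muscle and none in diaphragm, where Sdhb changed by 0.06 (SE 0.035, adjusted p = 0.135). Of 8 regulators of respiratory genes, 4, 6 and 7 were lower in the limb muscles and 3 in diaphragm. Esrra, the receptor ERR alpha, was called in all 3 limb muscles, at -0.79, -0.82 and -0.64, and Ppargc1a, the coactivator PGC-1 alpha, in TA, at -0.59.

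**Figure D5:**
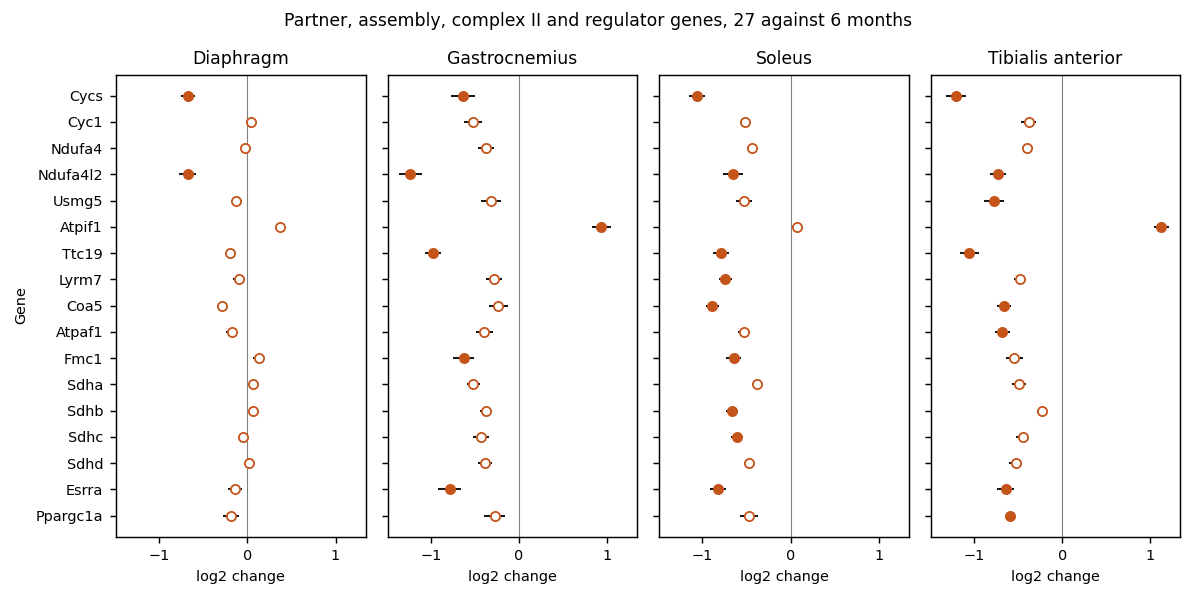
Log2 change from 6 to 27 months (x axis) with its SE for 17 partner, assembly, complex II and regulator genes (rows) in the 4 muscles (panels), filled where called. Cycs and Ndufa4l2 are filled on the left in all 4 muscles, and Atpif1 lies to the right in gastrocnemius and TA.

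Markers of fibres and of other cells also changed with age in the limb, some down and some up. Of the muscle fibre genes in the files, Ckm changed by 0.02, -0.83, -0.29 and -0.85 and Acta1 by 0.14, -0.46, -0.34 and -0.42 in diaphragm, gastrocnemius, soleus and TA, and their summed level in gastrocnemius ran from 72667 to 129359 CPM at 6 months and from 45139.5 to 79459 CPM at 27 months. Fast fibre markers passed as lower in gastrocnemius (5 of 8, against 28.9% of all genes) and TA (6 of 8, against 36.5%). Their summed level in TA ran from 191139 to 217745 CPM and then from 66403 to 178925 CPM. In soleus 7 of 8 fast markers passed as higher (27.4% of all genes) and all 6 slow fibre markers as lower (26.4%). The summed slow level there went from a range of 58742 to 75157 CPM to a range of 24492 to 76472 CPM. Of the 6 slow markers, 1 passed as lower in gastrocnemius and 2 in TA. In diaphragm 2 fast markers were lower (24.7% of all genes), 2 higher (20.3%), and 4 of 6 slow markers higher.

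Of 6 macrophage markers, 3 passed as higher in diaphragm (20.3% of all genes), 6 in gastrocnemius (33.2%), 5 in soleus (27.4%) and 6 in TA (37.7%). Their summed level in TA ran from 26.5 to 42 CPM at 6 months and from 58.5 to 119 CPM at 27 months, and in diaphragm from 72.8 to 123 CPM and from 91.6 to 172 CPM. All 4 adipocyte markers rose in each limb muscle and none in diaphragm, with the summed level in soleus running from 28.9 to 149 CPM and from 139.7 to 376 CPM. Of 4 endothelial markers 3, 4, 2 and 3 were lower in diaphragm, gastrocnemius, soleus and TA (24.7%, 28.9%, 26.4% and 36.5% of all genes). At 27 months no defining marker of these lists was at 0 in every library of a group, except Ucp1 of the brown adipocyte list in diaphragm, soleus and TA and Elovl3 in the last. The part of these cells and fibres in the changes of the respiratory genes was not tested.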

How the data were processed

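Total RNA of RNAlater-preserved muscle was depleted of ribosomal RNA and sequenced as strand-specific libraries. The authors aligned the reads to the rat B6.0 reference with ArrayStudio, used a RefSeq-based gene model of their own, and deposited raw counts per gene and library, 1 file per library, without pooling. Tool versions of that step are not given in the sources used here. No libraries were identical. Depth was 17.6 to 85.3 M counts per library (median 31.9 M).

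From these counts, each muscle was fitted with limma-voom (limma 3.58.1, edgeR 4.0.16, R 4.3.3) with TMM factors and 1 coefficient per age, after filterByExpr (minimum count 10, minimum total 15). Each age was set against 6 months and 27 against 21 months. A model of all libraries and 12784 genes gave differences between muscles. Tests were 2-sided, p-values were adjusted by Benjamini-Hochberg over all genes tested, and calls needed an adjusted p under 0.05 and over 1.5-fold. Log2 CPM used a prior count of 0.5. Trends needed a gain of 6 in the Bayesian information criterion over no trend, and a logistic trend a further 2 over the linear one. Ratios were tested with SciPy 1.17.1 in Python 3.11.15, and plots drawn with matplotlib 3.10.9. On simulated counts for 27 against 6 months in soleus, 94.5% of 200 genes changed 2-fold, among 11659, were called, with 1 false call. Changes under 2-fold, as for all members called at 27 months, were not simulated.

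Members and lists were chosen with earlier results of these data known. Named members are the isoform pairs, the core subunits and, per muscle or pair of muscles, the largest called changes. From each list of other genes the 2 largest called changes were taken, with Ppargc1a and Esrra. Further genes were named after their values were seen. Libraries of 1 group are separate rats, since the study counts samples as animals. Alternatives were RLE and total-count scaling, no filter, edgeR quasi-likelihood, DESeq2 1.42.0, Bonferroni, adjusted p alone, 2-fold, sample weights and a replicate block. A model with the log2 ribosomal RNA share was added after seeing the data. Promoters are from RefSeq GRCr8, with 33 of 41 members matched.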

Additional observations from a re-analysis of the deposited data

Results flagged for a closer look

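In gastrocnemius at 21 months, replicate 7 lay apart as the lowest of 9 libraries for 6 genes, by Dixon's test of the gap to its nearest neighbour. Its log2 CPM was 0.0739 for Cox4i2, 6.51 for Atp5g2, 8.30 for Uqcrc1, 8.27 for Uqcrfs1, 7.73 for Cox5a and 10.6 for Atp5a1. At 24 months in the same muscle, replicate 0 was the highest of 9 for Cox4i1 at 8.93, Cox7a2 at 7.12 and Atp5i at 6.99. In all, 60 gene and group combinations were checked, and chance flags about 1 in 20. These libraries enter the comparisons with 21 months and at 24 months and the trends over the ages, and the 27-month values against 6 months only through the estimate of the spread.

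The change at 27 months differed from that of the diaphragm for several named members by the interaction term. In gastrocnemius the differences in log2 change were -1.07 for Cox6a2, -0.89 for Atp5g1, -0.86 for Cox5b, -0.81 for Cox8b, -0.78 for Atp5b, -0.76 for Cox5a, -0.74 for Atp5a1, -0.71 for Uqcrc1, -0.65 for Uqcrfs1 and -0.62 for both Atp5i and Atp5g3. In soleus they were -1.16 for Cox8b, -0.84 for Cox5a, -0.81 for Atp5g1, -0.79 for Cox6a2, -0.77 for Cox5b, -0.67 for Uqcrc1, -0.64 for Atp5i and -0.63 for Atp5g3. In TA they were -0.68 for Cox5a, -0.67 for Atp5b, -0.67 for Cox6a2, -0.65 for Atp5a1, -0.62 for Atp5g1, -0.60 for Cox5b and -0.59 for Atp5i.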

How the results depend on the processing

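Total-count scaling moved counts, medians and directions, and the shares of all genes called under it are not given here. Under it, members called at 27 months became 0 in gastrocnemius, 3 in soleus and 2 in TA, and member medians -0.16, -0.32 and -0.11. Members whose change differed became 2, 5 and 2 for gastrocnemius, soleus and TA against the diaphragm, 1 for soleus and gastrocnemius and 1 for TA and soleus. At 6 months it gave 14 for soleus and gastrocnemius, 7 for TA and diaphragm and 6 for TA and soleus. It turned the direction of Cox5a (0.0075) and Atp5a1 (0.0260) in diaphragm, Atp5g2 in gastrocnemius (0.0777), soleus (0.0269) and TA (0.29), Cox6a1 in soleus (0.14), and Cox6a2 (0.10) and Cox4i1 (0.0204) in TA. RLE gave 1 difference between TA and soleus in the 27-month change and 2 between TA and diaphragm at 6 months.

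By adjusted p alone 19, 33, 36 and 36 members were called in diaphragm, gastrocnemius, soleus and TA. The 27-month change then differed for 31, 35 and 34 members between each limb muscle and the diaphragm, and for 11, 6 and 6 between soleus and gastrocnemius, TA and gastrocnemius, and TA and soleus. Of 12784 genes, 3404, 2552 and 3172 had a lower change in gastrocnemius, soleus and TA than in diaphragm. A higher one was found for 3207, 2055 and 2988. The numbers between limb muscles are given with the interaction terms above. At 6 months 38 differed for gastrocnemius and diaphragm, 32 for soleus and diaphragm, 24 for TA and diaphragm, 27 for TA and gastrocnemius and 36 for TA and soleus. Of 12784 genes, 4858 were lower and 4398 higher in gastrocnemius than in diaphragm. For soleus against diaphragm these numbers were 4055 and 3816, and for TA against diaphragm 4589 and 4745. In TA, 3473 were lower and 3367 higher than in gastrocnemius, and 4978 and 4740 than in soleus. At 2-fold none was called in any muscle (limma-voom; 20, 34, 36 and 37 with an unadjusted p under 0.05). Sample weights left 0 calls in diaphragm and 8 in gastrocnemius, 11 differences between gastrocnemius and diaphragm and 1 between TA and soleus, and turned Atp5a1 in diaphragm (0.0053) and Cox6b2 in soleus (-0.0758). Bonferroni left 0 calls in diaphragm. With the ribosomal RNA share, added after seeing the data, 0 were called in diaphragm and 2 in TA, and Atp5g1 (-0.0596) and Uqcrc1 (-0.0229) in diaphragm and Cox6b2 (-0.0184) and Cox6a1 (0.0023) in soleus turned. EdgeR turned Cox6a1 in soleus (0.00029). As a difference of medians the ratio of Atp5g1 to Atp5g3 in diaphragm was -0.013, and that of Atp5g2 to Atp5g3 was 0.10. The cause of these shifts was not tested.

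Replicate numbers did not pair the samples across ages, where 5 of 46 libraries correlated best with their own number. Across muscles 166 of 479 did, unevenly: every same-number pair correlated over 0.1 between the diaphragm and TA at 12 months (lowest 0.108) and 24 months (0.120) and between the soleus and TA at 24 months (0.127), but not in the other combinations of muscles and age. Between the soleus and TA, 10 of 12 libraries correlated best with their own number at 6 months and at 9 months, and 0 of 12 at 12 months. The labels do not state whether libraries of different muscles share a rat, and the main interaction model treats them as independent. With the replicate block, 1, 13, 7 and 6 members were called in diaphragm, gastrocnemius, soleus and TA, and all 115 blocked values kept their direction and side of the threshold. Among the single-gene values over all alternatives, 745 kept both, 54 lost the call, 55 gained it and 15 turned.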
